A study of Mus musculus with 4 samples.

Results

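The mouse promoter array set holds probes that carry no gene name, only their own chromosome position, and the regions these probes form are described here. Of 473642 non-control probes with a position, 10894 (2.30%) were of this kind. Probes less than 2000 bp apart on a chromosome were joined, which gave 505 runs, of which 69 had under 3 probes and were left out. The remaining 436 regions compare with 15253 regions formed in the same way from gene-named probes, and with 15689 regions in all. In 4 of the 436 regions no 3 neighbouring probes lay within 2000 bp, so 432 regions have a value.

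DNA bound by Ring1B was immunoprecipitated from chromatin and hybridised to arrays (ChIP-on-chip), from mouse embryonic fibroblasts, which are primary cells grown out of embryos. The cells were of strain C57BL/6, taken at embryonic day 12.5 and used at passage 2. Both wild-type cells and cells homozygous for Phc2 L307R were used, the latter with a point change in the Phc2 protein; the labels do not say how many embryos were pooled. Immunoprecipitated DNA was labelled with Cy5 and input DNA with Cy3, with no dye swap among the 4 arrays.

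Title numbers 1 and 2 stand for 2 array designs with 0 probes in common, so each region was measured on 1 array per genotype. No spread between cultures and no p-value can be given, and every error below is the SD over the 3 probes of a window, which covers neither the culture nor the array. Wild-type and Phc2 L307R arrays were scanned on different days, so genotype and scan day cannot be told apart. Neither the point change in Phc2 nor the fibroblast identity can be checked on immunoprecipitated DNA.

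Ring1B is the catalytic subunit of PRC1, the Polycomb repressive complex that places ubiquitin on histone H2A at silenced genes, above all those of developmental transcription factors. Phc2 is a subunit of canonical PRC1 whose SAM domain joins end to end with other SAM domains and gathers the complex into clusters. MicroRNAs (miRNAs) are short RNAs cut from longer primary transcripts. They pair with messenger RNAs chiefly through bases 2 to 8, the seed, and their genes have promoters that chromatin regulators can occupy as they do those of protein-coding genes.

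The location of each region was read from gene-named probes on either side, taking the nearest of up to 6 names that matched RefSeq. In RefSeq's gene order (GRCm38.p6) these flanking genes could be placed for 432 of the 436 regions, the mitochondrial one among the 4 that could not. The interval of a region spans both flanking genes, so a miRNA gene inside a flanking gene counts too. The interval of 137 regions held a miRNA gene, and the intervals held 277 of the 1228 miRNA genes listed by RefSeq. In 60 regions the interval held exactly 1 miRNA gene. The sources used here do not give the genome build of the array's positions, so a gene of the interval is a candidate for the region and not shown to lie in it. Positions of array regions are printed as the files give them, and positions in GRCm38.p6 are named as such.

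The regions with the largest differences between the genotypes included intervals of a pair of related miRNA clusters, and their mature sequences, from RefSeq, show what the clusters share. The miR-17 to miR-92a cluster lies between Slitrk5 and Gpc5 on chromosome 14 and the miR-106a to miR-363 cluster between Gpc3 and Phf6 on chromosome X. In GRCm38.p6, miR-17-5p lies at chr14:115043684-115043706 on the plus strand and miR-106a-5p at chrX:52742541-52742563 on the minus strand. Capitals mark the seed, and the sequences are ordered by shared seed.
mmu-miR-17-5p: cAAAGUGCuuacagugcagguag
mmu-miR-20a-5p: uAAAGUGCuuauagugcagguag
mmu-miR-106a-5p: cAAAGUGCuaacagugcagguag
mmu-miR-20b-5p: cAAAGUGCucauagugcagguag
mmu-miR-18a-5p: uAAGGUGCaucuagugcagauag
mmu-miR-18b-5p: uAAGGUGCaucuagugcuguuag
mmu-miR-19a-3p: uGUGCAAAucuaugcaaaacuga
mmu-miR-19b-3p: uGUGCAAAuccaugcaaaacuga
mmu-miR-92a-3p: uAUUGCACuugucccggccug
mmu-miR-363-3p: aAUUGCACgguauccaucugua

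Each cluster has 6 miRNA genes and 11 mature miRNAs in the table. They carry 9 seeds in the miR-17 to miR-92a cluster and 8 in the miR-106a to miR-363 cluster, of which 6 are the same. miR-19b-3p and miR-92a-3p are made from both clusters with identical letters.

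A further set is shown because its intervals were among the 10 highest in wild type. The sensory cluster of miR-183, miR-96 and miR-182 belongs to the interval of Nrf1 and Ube2h. That of Pigc and Dnm3 holds miR-199a and miR-214, and that of Tubd1 and Vmp1 holds miR-21a. In GRCm38.p6, miR-183-5p lies at chr6:30169711-30169732 on the minus strand, miR-199a-5p at chr1:162217844-162217866 on the plus strand and miR-21a-5p at chr11:86584120-86584141 on the minus strand.
mmu-miR-183-5p: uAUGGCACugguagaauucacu
mmu-miR-96-5p: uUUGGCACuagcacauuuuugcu
mmu-miR-182-5p: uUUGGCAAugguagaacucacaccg
mmu-miR-199a-5p: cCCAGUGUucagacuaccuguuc
mmu-miR-214-3p: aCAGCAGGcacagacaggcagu
mmu-miR-21a-5p: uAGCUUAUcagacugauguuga

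These 6 sequences carry 6 different seeds.

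For each region the 3 neighbouring probes with the highest joint mean of wild type and Phc2 L307R formed its window, given as the log2 ratio of immunoprecipitate over input, centred on the median of each array. A region was called bound at a window of at least 1. In wild type 119 of 432 regions were bound (27.5%), against 47.4% of all regions of the arrays. In Phc2 L307R 115 were bound (26.6%), against 42.1% of all regions. The same 98 regions were bound in both genotypes, which is 82.4% of those bound in wild type, and 136 were bound in at least 1 of them. The highest unbound region stood at 0.998 in wild type and the lowest bound one at 1.03, and 42 regions lay within 0.2 of the threshold.

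The median wild-type window of the regions was 0.32, with the middle part of the values from 0.00 at the lower quartile to 1.12 at the upper. Gene-named regions had a median of 0.95. The regions without gene name were spread over 21 chromosomes, the mitochondrial one included. They had a median length of 7015 bp, from 248 to 27940 bp, and a median of 25 probes, from 3 to 153. A length of 7000 to 8000 bp was common, with 181 of 436 regions.

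The highest joint mean of a region can only rise with the number of windows, although its value in a single genotype need not. Regions were therefore also compared within classes of probe number. Among regions of 3 to 9 probes 5.19% were bound in wild type without gene name and 3.98% with one. With 10 to 19 probes the shares were 21.7% and 29.7%, with 20 to 29 probes 37.1% and 45.8%, and with 30 or more probes 35.5% and 58.3%. The share was thus lower without gene name in 3 of the 4 classes, and the gap was widest in the class with most probes. In Phc2 L307R the shares in the same order of classes were 3.90% and 2.96%, 15.2% and 24.3%, 36.1% and 38.3%, and 38.0% and 53.5%. No test was run on these shares, since neighbouring regions share their array and many share a locus.

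**Figure D1:**
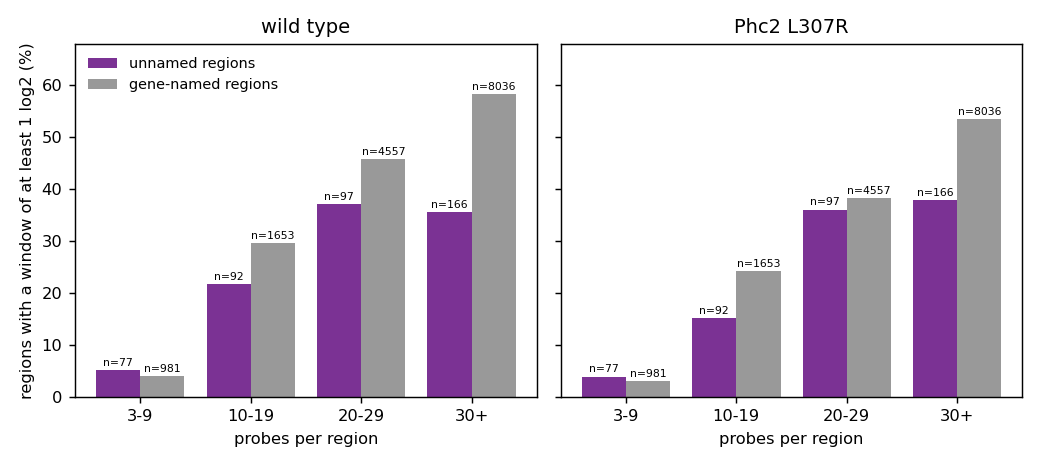
Bars give the percentage of regions with a window of at least 1 log2 (vertical axis) in 4 classes of probe number (horizontal axis), for regions without gene name (purple) and gene-named regions (grey), in wild type (left) and Phc2 L307R (right); n is the number of regions. In regions of 30 or more probes the wild-type share was 35.5% without gene name and 58.3% with one.

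Bound regions were usually occupied over part of their length. The longest run of consecutive probes at or above 1 in wild type had a median of 4 probes and reached 34. In gene-named regions the median run was 3 probes, with a longest run of 128. Probes at or above 1 made up a median of 25% of a bound region, against 19.2% of a gene-named one.

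Over the 136 bound regions the median difference of Phc2 L307R minus wild type was -0.08, with 76 of 136 below 0. Bound gene-named regions had a median of -0.13, with 4979 of 8153 below 0. The direction of the median depended on how the window was chosen: it was -0.34 for the window highest in wild type and 0.19 for the window highest in Phc2 L307R. By the size rule (bound in either genotype, a difference of at least 1, and all 3 probes on the same side), 4 regions fell and 6 rose. That all 3 probes of such a region differ the same way is thus set by the rule and adds no support. Among all regions of the arrays 1.62% fell and 0.952% rose. Among those bound in either genotype it was 3.06% and 1.8%.

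**Figure D2:**
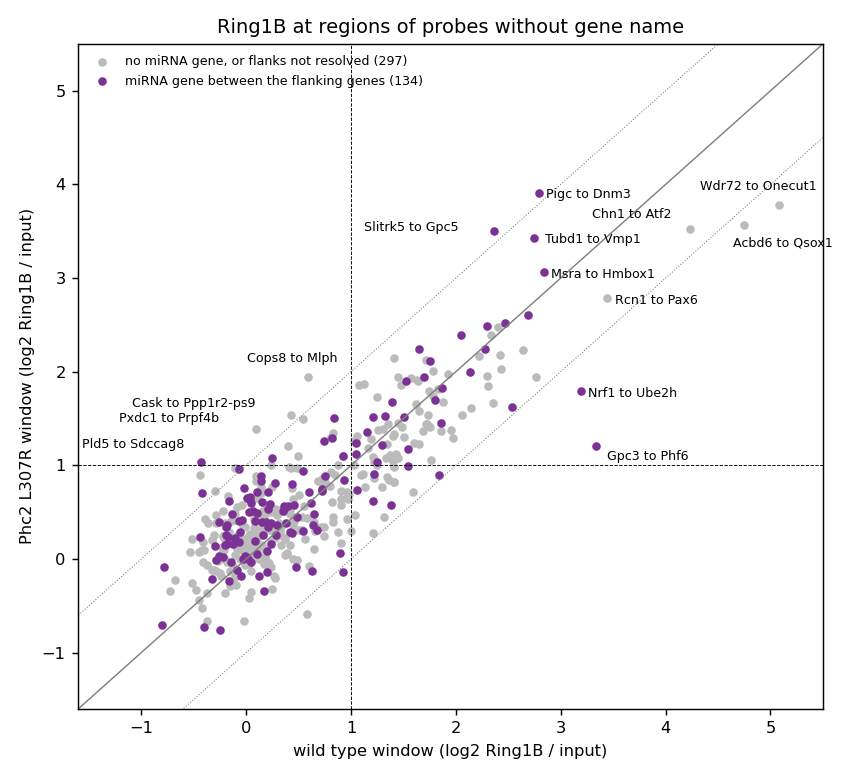
Each point is 1 of the regions outside the mitochondrial genome (log2 Ring1B over input). Its wild-type window is on the horizontal axis and its Phc2 L307R window on the vertical axis. Purple points have a miRNA gene in their interval, the flanking genes included. Dashed lines mark the bound threshold of 1, the solid line equality and the dotted lines a difference of 1. The 4 regions that fell lie below the lower dotted line, with Gpc3 to Phf6 farthest from equality at a difference of -2.13, and the 6 that rose lie above the upper one.

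Windows of at least 3 in either genotype were found in 10 regions, against 2.14% of all regions. They include all 4 regions that fell and 2 of the 6 that rose, and 6 of the 10 had a miRNA gene in their interval. Among all 432 regions with a window, 134 had a miRNA gene in their interval, with a median of 31 probes, against 23 without one. The median difference over the 10 was -0.68, with 6 below 0. Over the 325 gene-named regions of this height it was -0.33, with 216 below 0, 59 fallen and 12 risen.

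The wild-type values exist in a second version. The deposited value tables hold Phc2 L307R values that lay, at 99.9% of these probes, within 0.02 log2 of the scanner values once both were centred, against 4.22% of probes in wild type. The sources used here do not say what the wild-type tables were made from. Both versions are set against the same Phc2 L307R arrays, so the tables are no independent repeat. Their difference at the same 3 probes is given beside each named region. Its median was -1.74 over the 10 regions with a window of at least 3, against -1.49 over the 325 gene-named regions of this height.

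The highest window of any region without gene name lay between Wdr72 and Onecut1 on chromosome 9 (chr9:74636467-74636809), 5527 bp from the nearest probe named Onecut1, a homeobox gene of liver and pancreas development. Its 3 probes read 5.02, 4.84 and 5.38 in wild type, against 3.65, 3.73 and 3.97 in Phc2 L307R. All 3 were lower in Phc2 L307R and the ranges did not overlap. The window went from 5.08 ± 0.28 to 3.78 ± 0.16, a fall of -1.30 ± 0.17 (SD over the differences of 3 probes), and -2.10 in the value tables. Input was well above background at all 3 probes in both genotypes. The Onecut1 region itself had lower windows, 2.84 in wild type and 1.82 in Phc2 L307R. In the region without gene name 24 of 35 probes were at or above 1 in wild type and 17 in Phc2 L307R.

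Between Acbd6 and Qsox1 on chromosome 1 (window at chr1:157505850-157506537) RefSeq places Lhx4, a LIM homeobox gene of pituitary and motor neuron development for which the arrays hold no probe of that name. The probes read 4.21, 4.63 and 5.40 in wild type, against 2.89, 3.50 and 4.31 in Phc2 L307R. Each probe was lower in Phc2 L307R, although the ranges of the 3 probes overlap. The window fell from 4.74 ± 0.60 to 3.57 ± 0.71, a difference of -1.18 ± 0.13, and of -2.55 in the value tables. With the window chosen in Phc2 L307R alone the difference was -0.96, and over all probes of the region it was -0.66, both short of the size rule. The region held separate peaks, with a longest run of 12 probes at or above 1 in both genotypes.

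The other 2 regions of this height without a miRNA gene in the interval did not pass the size rule. Between Chn1, a Rac GTPase-activating protein, and the transcription factor gene Atf2 on chromosome 2, the probes read 4.09, 4.18 and 4.42 in wild type, against 3.67, 3.39 and 3.50 in Phc2 L307R. The window of 4.23 in wild type against 3.52 in Phc2 L307R gave a difference of -0.71 ± 0.27. The nearest named probe lies 107042 bp away, and wild type had 26 probes in a row at or above 1. The region between Rcn1 and Pax6 ends 318 bp from the nearest probe of Pax6, the paired homeobox gene of eye and brain development, and all 15 of its probes were at or above 1 in both genotypes. Its probes read 3.1, 4.45 and 2.78 in wild type, against 2.45, 3.39 and 2.52 in Phc2 L307R, with a difference of -0.66 ± 0.40. Over 5 probes the difference was -0.14 and over probes well above background -0.25. In the value tables the differences at these 2 regions were -1.85 and -1.63.

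The largest fall lay between Gpc3 and Phf6 on chromosome X (window at chrX:48990768-48991133), the interval of the miR-106a to miR-363 cluster printed above. RefSeq also lists Mir717, Mir6384 and the protein-coding gene Ccdc160 there, and a second region without gene name lies in the same interval, so which region belongs to the cluster is not settled by gene order. The probes read 3.1, 3.59 and 3.31 in wild type, against 1.08, 1.63 and 0.91 in Phc2 L307R. All 3 wild-type probes stood above all 3 Phc2 L307R probes. The window went from 3.34 ± 0.25 to 1.21 ± 0.37, a difference of -2.13 ± 0.24 and of -3.05 in the value tables. Wild type had 30 probes in a row at or above 1 and Phc2 L307R had 6. Input was well above background at only 1 of the 3 probes in each genotype, and over probes well above background in both channels the difference was -2.13 as well. With the window chosen in Phc2 L307R alone it was -1.26. Over all probes of the region it was -0.99, short of the size rule. The second region of the interval was unbound, at -0.30 in wild type and 0.14 in Phc2 L307R.

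Between Nrf1 and Ube2h on chromosome 6 (window at chr6:30121681-30122128), the interval of the miR-183, miR-96 and miR-182 genes, which act in hair cells and photoreceptors, the probes read 2.60, 4.16 and 2.81 in wild type. In Phc2 L307R they read 1.41, 2.75 and 1.22. The central probe was the highest in both genotypes and each probe was lower in Phc2 L307R. The window fell from 3.19 ± 0.85 to 1.79 ± 0.83, a difference of -1.40 ± 0.20 and of -1.88 in the value tables at the same probes. Input was well above background at 1 of the 3 probes. The call rested on that window: the difference was -0.68 over 5 probes, -0.78 over probes well above background and -0.40 with normexp, a background correction that models signal and noise. Over all probes of the region it was -0.16, and their mean was below the bound threshold in both genotypes.

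**Figure D3:**
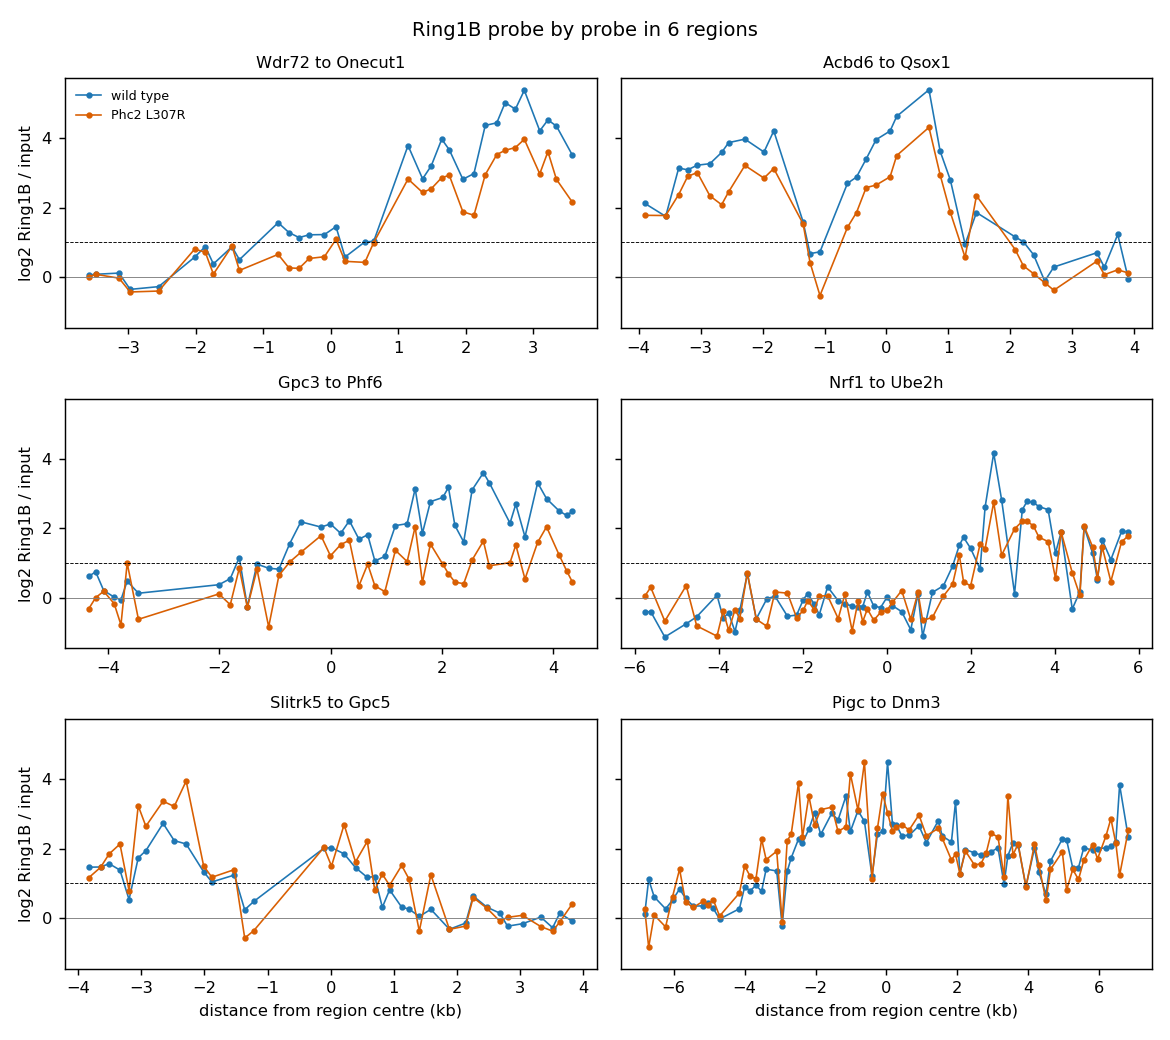
Each panel plots the probes of 1 region, with the distance from the region's centre in kb on the horizontal axis and the log2 ratio of Ring1B over input on the vertical axis, in wild type (blue) and Phc2 L307R (orange); lines join neighbouring probes and the dashed line marks 1. The Gpc3 to Phf6 panel shows wild type above Phc2 L307R over a stretch of 30 consecutive wild-type probes at or above 1, whereas the lines cross repeatedly in the Pigc to Dnm3 panel.

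In the interval of the related miR-17 to miR-92a cluster the scanner values went the other way. The window between Slitrk5 and Gpc5 on chromosome 14 (chr14:113921600-113922024) read 2.72, 2.23 and 2.13 in wild type, against 3.36, 3.21 and 3.94 in Phc2 L307R. All 3 probes were higher in Phc2 L307R, and the ranges did not overlap. The window rose from 2.36 ± 0.32 to 3.51 ± 0.39, a difference of 1.15 ± 0.60. It was short of the size rule with normexp background correction (0.93), with arrays scaled to the same spread (0.84), over probes well above background (0.78) and over all probes of the region (0.27). The value tables gave -0.76 at the same probes, with a wild-type window of 4.27, so the direction of this region depends on which wild-type values are used. In the tables the windows described here were lower in Phc2 L307R at both cluster intervals. The second region between Gpc3 and Phf6 was higher there, by 0.60. Whether the 2 clusters differ was not tested.

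The interval of Pigc and Dnm3 on chromosome 1 (window at chr1:164054655-164055108) holds Mir199a-2 and Mir214, miRNA genes of mesenchymal cells carried on a transcript antisense to Dnm3. The interval includes its flanking genes, so these miRNA genes need not lie between Pigc and Dnm3. The region's 75 probes included 55 at or above 1 in wild type and 59 in Phc2 L307R. It had the longest wild-type run of any region without gene name, 34 probes. The window read 2.49, 3.09 and 2.78 in wild type, against 4.15, 3.1 and 4.48 in Phc2 L307R. The middle probe hardly differed. The window rose from 2.79 ± 0.30 to 3.91 ± 0.72, a difference of 1.12 ± 0.96, and the value tables gave 0.41. Over probes well above background the difference was 0.12. Over all probes of the region the difference was 0.07, and with the window chosen in wild type alone it was -0.58.

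Between Tubd1 and Vmp1 on chromosome 11, the interval of Mir21a, a miRNA gene active in growing fibroblasts, the probes read 2.75, 2.09 and 3.38 in wild type, against 3.63, 2.86 and 3.79 in Phc2 L307R. Each was higher in Phc2 L307R and the ranges overlapped. The difference of 0.68 ± 0.25 was short of the size rule, and the value tables gave -0.17. Wild type had 25 of 30 probes at or above 1, in a single run.

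Mir124a-1, a miRNA gene of neurons, belongs to the interval of Msra and Hmbox1 on chromosome 14, which also holds Mir3078 and Kif13b. The window of the region there stood at 2.84 ± 0.27 in wild type and 3.06 ± 0.84 in Phc2 L307R. The difference of 0.22 ± 0.72 was smaller than the spread over its probes, and the value tables gave -1.13. Another of the 10 highest wild-type regions, between Ooep and Cgas on chromosome 9, has Ddx43, a helicase gene of the germ line, in its interval. Its probes read 2.24, 3.04 and 3.0 in wild type, against 1.52, 2.46 and 1.83 in Phc2 L307R, with a difference of -0.82 ± 0.31 and of -2.27 in the value tables.

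Apart from the Slitrk5 to Gpc5 and Pigc to Dnm3 regions, the 4 regions that rose were unbound in wild type and stood between 1.03 and 1.95 in Phc2 L307R. The region between Pld5 and Sdccag8 on chromosome 1, whose interval holds Mir350 and the centrosomal gene Cep170, stood at -0.43 ± 0.38 in wild type and 1.03 ± 0.69 in Phc2 L307R. Only 1 of its probes was at or above 1 in Phc2 L307R, input was well above background at 1 of the 3 probes in wild type and at 0 in Phc2 L307R, and the difference of 1.46 became -0.01 with the window chosen in wild type alone. Between Cops8 and Mlph on chromosome 1, the interval of the collagen gene Col6a3, the probes read 0.73, 0.72 and 0.33 in wild type, against 2.84, 1.29 and 1.72 in Phc2 L307R. The difference was 1.36 ± 0.77, with 1.03 in the value tables and 0.87 with normexp, and 4 probes in a row were at or above 1 in Phc2 L307R.

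Between Pxdc1 and Prpf4b on chromosome 13, the interval of Fam50b, the probes read 0.29, 0.26 and -0.25 in wild type, against 1.28, 1.87 and 1.00 in Phc2 L307R. The difference was 1.29 ± 0.31, with 0.93 in the value tables and 0.90 with normexp, and input was well above background at all 3 probes. Between Cask and Ppp1r2-ps9 on chromosome X, the interval of the testis histone gene H2al1n, the window went from 0.42 to 1.54, a difference of 1.12 ± 0.41 and of 0.32 in the value tables. It was 0.16 over probes well above background, 0.67 over 5 probes and 0.40 both with normexp and with the window chosen in wild type alone, and input was well above background at 1 of the 3 probes in Phc2 L307R. Beside these, 3 unbound regions differed by at least 1 downward and 5 upward and do not count as fallen or risen.

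**Figure D4:**
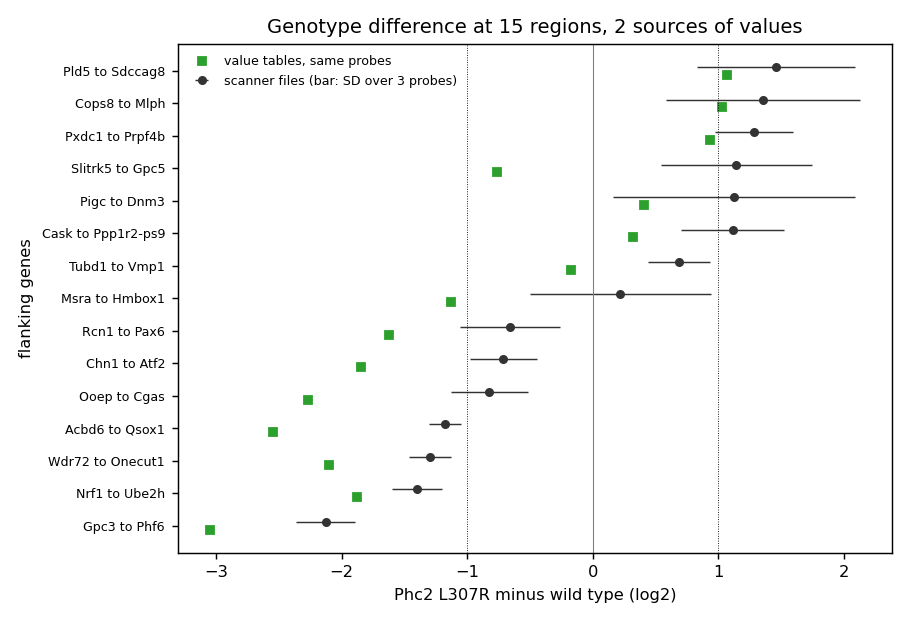
For 15 named regions (vertical axis, by flanking genes) the difference of Phc2 L307R minus wild type is plotted on the horizontal axis in log2, from the scanner files (black, bars give the SD over 3 probes) and from the value tables at the same probes (green). The value tables lie to the left of the scanner values at every one of these regions, and on the other side of 0 for Slitrk5 to Gpc5 (-0.76 against 1.15), Tubd1 to Vmp1 and Msra to Hmbox1.

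Of 134 regions with a miRNA gene in their interval and a window, 36 were bound in wild type (26.9%) and the same number in Phc2 L307R, and of 294 without a miRNA gene 82 were bound in wild type (27.9%) and 79 in Phc2 L307R. The former had a median of 31 probes and the latter of 23. Among regions of 20 or more probes the bound share with a miRNA gene was 32.6% in wild type, against 38.2% without one, and in Phc2 L307R it was 34.7%, against 39.4%. The median difference over bound regions was 0.12 with a miRNA gene and -0.18 without one. In the value tables the order turned, with -0.37 and -0.14. These intervals are not independent loci: the 137 regions lie in 106 intervals, and 48 regions share an interval with another one.

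The miRNA intervals were grouped by the tissues in which the miRNAs are known, after their values had been seen, so the groups are a description. In these groups a miRNA gene's name stands for the region at its interval. The gene is not shown to lie in that region, and some intervals hold further genes. For comparison with each group, 26.9% of all regions with a miRNA gene in their interval were bound in each genotype. Over all regions of the arrays it was 47.4% in wild type and 42.1% in Phc2 L307R. Regions of the groups held from 3 to 153 probes, and no difference between groups was tested. Neural miRNAs had 11 regions, of which 7 were bound in wild type and 7 in Phc2 L307R, with a median wild-type window of 1.55. After Mir124a-1 the highest were Mir9-1, a neural progenitor miRNA gene, at 2.69 ± 0.78 in wild type and 2.60 ± 0.82 in Phc2 L307R, and Mir137, a neuronal one, at 2.54 ± 1.07 and 1.62 ± 0.77. At Mir137 the difference of -0.92 ± 1.63 was smaller than its spread over probes. Mir129-2 stood at 2.28 and 2.25, whereas the separate Mir129-1 interval was unbound, at 0.04 and 0.63. The regions at the Mir124a-2 and Mir124a-3 intervals were bound at 1.65 and 1.55 in wild type, while those at Mir7-1 and Mir7b were not, at 0.05 and 0.61. The Mir7-2 interval was bound in wild type alone, at 1.06 against 0.74 in Phc2 L307R. Mir9-3 was bound in Phc2 L307R alone, at 1.29 against 0.82 in wild type, so the 7 bound regions are not the same in both genotypes.

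Of the 9 regions at intervals of liver, pancreas, blood and epithelial miRNAs none was bound in either genotype, against 26.9% of all regions with a miRNA gene in their interval. The highest wild-type window in the group was 0.36, at the interval of the skin gene Mir203, and the lowest -0.80, at that of Mir200a of epithelial cells. The Mir200a region has only 3 probes, so its window could not be chosen among several. The liver gene Mir122 stood at 0.02, the islet gene Mir375 at -0.29, and the blood genes Mir142 and Mir146 at -0.19 and -0.09. The Mir375 region lies 292 bp from a probe named Cryba2, where the gene-named region stood at 1.89 in wild type and 1.47 in Phc2 L307R. In Phc2 L307R the highest of the group was Mir205, an epithelial gene, at 0.88 ± 0.97.

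Mesenchymal and fibroblast miRNAs had 4 of 7 regions bound in each genotype. Beside the intervals of Mir199a-2 and Mir21a these were Mir143 of smooth muscle at 1.05 and the Mir322 cluster on chromosome X at 2.47, each with a difference smaller than its spread over probes. The Mir29a, Mir29c and Mir221 intervals were unbound. Among 7 regions at let-7 intervals, whose miRNAs mark differentiating cells, 3 were bound in both genotypes. They were Mirlet7i at 2.30, the second Mirlet7c-1 region at 2.05 and Mirlet7a-2 at 1.53, with Phc2 L307R at 2.49, 2.39 and 1.90. In the imprinted Dlk1 to Dio3 domain 2 of 5 regions were bound in wild type and 1 in Phc2 L307R. The first region between Rtl1 and Dio3 stood at 1.84 ± 0.37 in wild type and 0.89 ± 0.20 in Phc2 L307R, a difference of -0.95 ± 0.28 and of -2.33 in the value tables. Of the muscle miRNAs Mir206 was bound in Phc2 L307R alone, at 1.51 against 0.83, with probes that spread by 1.16 in their difference, and Mir1a-1 was bound in neither genotype.

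**Figure D5:**
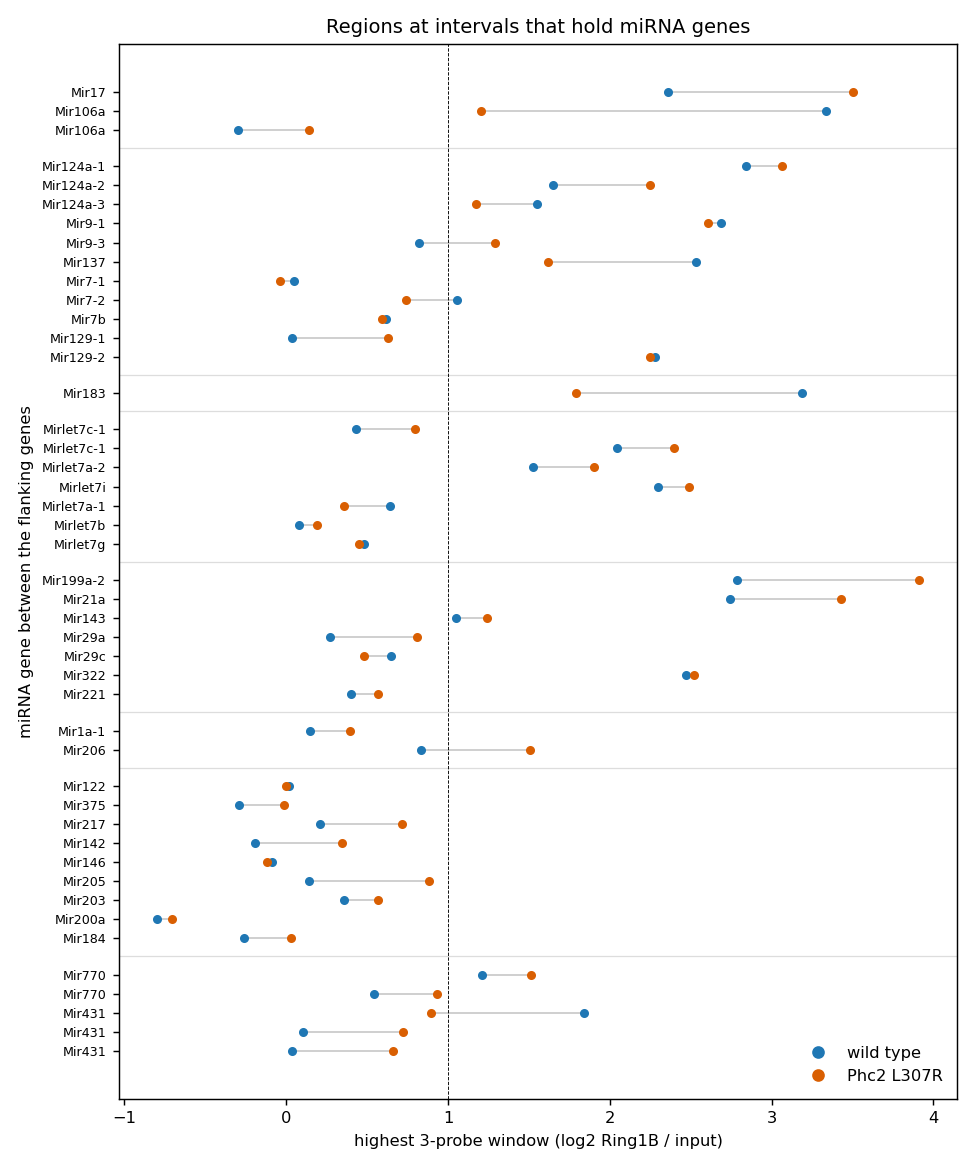
Each row is 1 region at an interval that holds the named miRNA gene (several regions can share an interval), with its 3-probe window in wild type (blue) and Phc2 L307R (orange) on the horizontal axis as log2 Ring1B over input; grey lines separate, from the top, clusters with the miR-17 seed, neural, sensory, let-7, mesenchymal, muscle, liver, pancreas, blood and epithelial miRNAs, and the Dlk1 to Dio3 domain. The rows of the 9 liver, pancreas, blood and epithelial regions lie left of the dashed line at 1, and 7 of the 11 neural regions lie right of it in wild type.

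For 71 regions a gene-named probe lay under 2000 bp away, so that they adjoin a named promoter, and for 99 within 10000 bp, while for 136 the nearest one was over 100000 bp off. Among 95 regions within 10000 bp whose neighbour also had a window, 18 were bound in wild type together with the neighbour, 12 without it, 29 neighbours were bound alone and 36 pairs were unbound. The median wild-type window was 0.41 for the regions and 0.99 for their neighbours. Bound regions near a bound neighbour include the 3 next to homeobox genes, Onecut1, Pax6 and Hoxb9, a gene of trunk patterning. The Hoxb9 neighbour stood at 1.75 in wild type and 2.12 in Phc2 L307R, with Hoxb9 itself at 3.53 and 3.23. Bound regions beside an unbound promoter include that between Chuk and Pkd2l1 at 2.22, with the channel gene Pkd2l1 at -0.09, and that between Gpr19 and Cdkn1b at 2.30, with Gpr19 at 0.60.

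By distance, bound regions with a named probe under 2000 bp away had a median difference of -0.23, with 17 of 22 below 0. At 2000 to 10000 bp it was -0.40, with 8 of 10 below 0, and beyond 10000 bp it was 0.02, with 51 of 104 below 0. In the value tables the medians were -0.27, -0.21 and -0.17. The regions near promoters had a median of 13 probes and those beyond 10000 bp a median of 28. On chromosome X 2 of 21 regions were bound in wild type (9.52%), against 43.7% of its gene-named regions.

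The region with the lowest values was the mitochondrial one, whose 47 probes carry no gene name. Mitochondrial DNA lies outside the nucleus, where Ring1B acts on chromatin. The probes had a median of -1.12 in wild type, from -1.99 to -0.39, and of -4.19 in Phc2 L307R, from -5.19 to -3.26. All 47 were lower in Phc2 L307R, the ranges did not overlap, and both channels were well above background at all 47 probes in both genotypes. In the value tables the wild-type median was -0.40, from -1.51 to 0.38. The lowest 3-probe window was at or below -1 in 8 regions in wild type and in 38 in Phc2 L307R, the mitochondrial one included, which is 1.85% and 8.80% of the regions. Over all regions of the arrays it was 3.55% and 10.3%. The part of this depletion in the genotype differences above was not tested.

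Probes without gene name had immunoprecipitate signal well above background at 98.1% to 99.7% on the 4 arrays. Input was well above background at 86.6% and 88.0% of them on the wild-type arrays, against 75.4% and 77.8% on the Phc2 L307R arrays. The SD of single probes, from successive probes of a region, was 0.37 on design 1 and 0.33 on design 2 in wild type, against 0.43 and 0.39 in Phc2 L307R. The median SD over a window's 3 differences was 0.38.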

How the data were processed

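Each of the 4 scanner files gives spot intensity per channel and the log10 ratio of Cy5 over Cy3, which the authors obtained with Agilent Feature Extraction 10.7.3.1, per the file headers. The authors' value tables also hold log10 ratios, judged from their match to the scanner files. The genome build is not given by the sources used here.

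Log10 ratios from the deposited files were converted to log2 and centred on each array's median, without control spots and spots with outlier flags (5 among the probes described). Saturated spots were kept. Regions, windows and the size rule are as stated in the report. Named regions are the 10 highest in wild type, up to 10 falls and 10 rises by the size rule, all with a window of at least 3, and the mitochondrial one. Members and lists were chosen with earlier results of these data known. Because each region has 1 array per genotype, no test was made.

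Of 18354 gene names 17827 matched RefSeq. Genes of an interval, which spans both flanking genes, were taken from RefSeq's order, for intervals up to 5000000 bp in GRCm38.p6. Alternatives were normexp (offset 50), loess, equal spread, a filter on dim probes, the value tables, other windows, thresholds, joining distances and region sizes, and single designs. The steps were tested on simulated data. Tools were Python 3.11.15 (numpy 2.4.6, pandas 2.3.3, scipy 1.17.1, matplotlib 3.10.9) and R 4.3.3 with limma 3.58.1.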

Additional observations from a re-analysis of the deposited data

How the results depend on the processing

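The 7 counts and medians were recomputed under up to 19 alternatives. Of the values, 81 stayed within set bounds and 47 did not, and the cause was not tested. For a count the bound was 1.5-fold of the main value. For a median it was an interval that takes regions as independent, which they are not. It ran from -0.20 to 0.03 for the difference and from 0.24 to 0.42 for the wild-type window. Normexp gave 71 regions bound in wild type, 46 in Phc2 L307R and 38 in both, 9 lower, 0 higher and a median difference of -0.38. Scaling to the same spread gave 7 lower, 3 higher and a median of -0.25. The value tables gave 19 lower, 3 higher and a median of -0.24. Probes well above background alone gave 73 bound in Phc2 L307R, 61 in both, 2 higher, a median difference of -0.25 and a wild-type median of 0.19. Windows of 5 probes gave 3 higher. The window highest in wild type gave 7 lower, 3 higher and a median of -0.34, and that highest in Phc2 L307R gave 2 lower, a median of 0.19 and a wild-type median of 0.17. The mean over all probes of a region gave 19 bound in wild type, 15 in Phc2 L307R and 12 in both, 0 lower, 0 higher, a median of -0.23 and a wild-type median of -0.090. A bound threshold of 1.5 gave 65, 60 and 48 bound, a size rule of 1.5-fold gave 15 lower and 16 higher, and joining at 1000 bp gave a wild-type median of 0.19.

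Leaving out either array design left 53 to 66 regions bound in wild type, 54 to 61 in Phc2 L307R and 45 to 53 in both, with 2 lower and 3 higher each time, since each design holds about as many regions. Among regions that passed the size rule the difference reversed at Pigc to Dnm3 under normexp (-0.50) and the window highest in wild type (-0.58), at Pld5 to Sdccag8 under that window (-0.011) and at Slitrk5 to Gpc5 in the value tables (-0.76). Of the named regions short of that rule, Msra to Hmbox1 was below 0 under 6 of 15 alternatives, down to -1.33 with normexp, and Tubd1 to Vmp1 under 1, the value tables (-0.17). The differences at Wdr72 to Onecut1, Acbd6 to Qsox1, Gpc3 to Phf6 and Nrf1 to Ube2h were below 0 under all 15 alternatives run for them. So were those at Chn1 to Atf2, Rcn1 to Pax6 and Ooep to Cgas, which did not pass the size rule. The rises at Cops8 to Mlph, Pxdc1 to Prpf4b and Cask to Ppp1r2-ps9 were above 0 under all 15. Other thresholds, joining distances and region sizes returned the same difference at each of these regions, so not all 15 are separate checks. Both of the following alternatives were chosen after seeing the data. Leaving out spots with surrogate values in both channels left all 7 counts and medians unchanged. Leaving out the regions between Adam6a and Zfp386, none of them bound, could change only the wild-type median over all regions, which became 0.36. Dim input limits the ratios most in Phc2 L307R. No paired analysis was possible because arrays of the same title number in the 2 genotypes are 1 array each, and the numbers name designs with different probes.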

Other observations

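A block of 13 regions without gene name lay between Adam6a and Zfp386 on chromosome 12, an interval in which RefSeq lists 184 variable gene segments of the immunoglobulin heavy chain, the antibody locus that is rearranged and expressed in B cells. None of the 11 regions with a window was bound in either genotype. The wild-type windows ran from -0.26 to 0.23, with a median of -0.01, and the Phc2 L307R windows from 0.03 to 0.96, with a median of 0.41. All 11 were higher in Phc2 L307R, with a median difference of 0.45, and 8 of 11 in the value tables, with a median of 0.26. Over all 432 regions without gene name 255 were higher in Phc2 L307R, with a median difference of 0.07, and 237 in the value tables, with a median of 0.06. These windows are the highest of each region and lie below the bound threshold, and the regions share a locus.

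On chromosome X, 4 regions between Ctag2 and 4933436I01Rik were unbound too, with a highest window of 0.24 in wild type, against 0.48 in Phc2 L307R.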
